A study of Mus musculus with 6 samples.

Results

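The genes described are 7 that encode nuclear regulators of palate mesenchyme, Tbx22, Barx1, Msx1, Shox2, Mn1, Snai1 and Meox2. They were taken as every probe set of the deposited significance table whose gene symbol equals one of these names, which gave 1 probe set per gene, 7 of the 1061 probe sets listed there, which are 2.35% of the 45101 on the array. A probe set is a group of short oligonucleotides on an Affymetrix array that are read together as 1 value. Other probe sets of these genes may lie on the array, but only listed probe sets carry gene names, so none could be examined. The table lists only probe sets that the submitters had selected for a difference on these same arrays, so that each of the 7 is listed with a difference is not a result.

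The tissue was maxillary arch mesenchyme of female mouse embryos at embryonic day 10.5, cut with a laser from frozen head sections along the territory in which Lhx6 and Lhx8 are normally active. Wild-type embryos gave 3 arrays and embryos lacking both genes, Lhx6-/-; Lhx8-/-, gave 3, with 1 embryo per array. All came from a mixed background of the C57BL/6J, 129 and CD-1 strains, were matched for somite number, and carried no other allele or treatment named in the labels. The comparison asks which genes depend on the LIM-homeodomain factors Lhx6 and Lhx8 in this tissue. How the alleles were deleted is not stated in the labels.

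The secondary palate forms from shelves that grow out of the maxillary arches, and their core is mesenchyme derived largely from cranial neural crest. Growth and patterning of this mesenchyme depend on transcription factors that are active in overlapping territories from the arch stage onward. Homeobox genes such as Msx1, Shox2 and Barx1 respond to BMP and FGF signals from the epithelium, and loss of Msx1, Shox2, Mn1 or Meox2 in the mouse is known to leave the palate cleft. TBX22 is mutated in human X-linked cleft palate with a tethered tongue, and in the mouse Mn1 is known to act upstream of Tbx22 in the palatal shelves.

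The sequences before the transcription starts of the 4 genes with lower intensity in the double mutants are shown. LIM-homeodomain proteins bind DNA cores of the homeodomain type, but binding of Lhx6 or Lhx8 to these sequences was not tested. Each is the 250 bases ahead of a start in RefSeq on build GRCm38.p6, written 5′ to 3′ in the direction of the gene, and capitals mark the core TAAT on either strand. For Tbx22 the most upstream of 3 annotated starts is shown, at chrX:107667714-107667963 on the plus strand. Barx1 lies at chr13:48662786-48663035 on the plus strand, Msx1 at chr5:37824586-37824835 on the minus strand and Shox2 at chr3:66981772-66982021 on the minus strand.
Tbx22: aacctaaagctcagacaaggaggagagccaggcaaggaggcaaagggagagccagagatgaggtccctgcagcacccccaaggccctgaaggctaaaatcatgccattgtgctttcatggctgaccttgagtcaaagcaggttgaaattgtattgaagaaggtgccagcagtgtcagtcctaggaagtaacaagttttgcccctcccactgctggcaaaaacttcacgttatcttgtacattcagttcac
Barx1: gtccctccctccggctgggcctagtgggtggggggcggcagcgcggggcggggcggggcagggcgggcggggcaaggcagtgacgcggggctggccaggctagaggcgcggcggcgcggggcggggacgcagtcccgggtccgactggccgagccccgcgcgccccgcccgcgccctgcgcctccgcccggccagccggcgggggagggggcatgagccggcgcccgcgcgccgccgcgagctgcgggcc
Msx1: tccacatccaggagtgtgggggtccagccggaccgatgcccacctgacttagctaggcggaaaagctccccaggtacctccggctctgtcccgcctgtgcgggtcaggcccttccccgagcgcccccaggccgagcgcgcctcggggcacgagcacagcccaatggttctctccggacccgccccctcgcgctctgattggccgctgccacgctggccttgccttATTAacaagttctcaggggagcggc
Shox2: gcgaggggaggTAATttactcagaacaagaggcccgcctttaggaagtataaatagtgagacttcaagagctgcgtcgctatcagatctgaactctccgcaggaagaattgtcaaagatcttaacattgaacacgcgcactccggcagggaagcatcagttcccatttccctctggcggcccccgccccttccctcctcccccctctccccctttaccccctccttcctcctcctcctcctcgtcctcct

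The longer palindromic homeodomain core TAATTA, searched on both strands, was in none of the 8 windows of the 6 genes with an entry, while 4.84% of the 32851 windows of this length in the table hold it. The core TAAT, which every TAATTA also contains, was found 1 time each before Msx1, Shox2, Meox2 and the third start of Tbx22, and 54.9% of all windows hold it. It began 25 bases before the start of Msx1, 239 bases before that of Shox2 and 40 bases before that of Meox2. The windows differed in base composition: 85.6% of the bases before Barx1 were G or C and 68.0% of those before Msx1, against a median of 52.4% over all windows and 49.6% before the first start of Tbx22. A window without these letters says nothing about binding elsewhere.

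Array values are given in 1 order throughout: for wild type the column without a number, then 4 and 5 in the significance table, and 1, 4 and 5 in the value table, and for double mutants 1, 2 and 4. Lhx8, the targeted gene that the files name, had intensities of 8628, 8976 and 9493 on the wild-type arrays and 5177, 2711 and 3177 on double mutants 1, 2 and 4 in the significance table. In the value table, which holds all probe sets on another scale, the wild types stood at 2063, 1992 and 2240 and the double mutants at 2036, 699.3 and 910.5. The array labelled double mutant 1 therefore lay inside the wild-type range for Lhx8 in the value table. If the oligonucleotides lie outside the deletion, they cannot check the genotype, and none carries the name Lhx6 in the files. The same array stood apart in its controls: the 3′ over 5′ ratio of Actb was 24.8 there and at most 1.85 elsewhere, and that of Gapdh 17.8 and at most 1.60. Over probe sets, none of them an independent replicate, it correlated with the others in log2 intensity at 0.679 or less, where the remaining 5 reached 0.946 to 0.976 among themselves. The group differences of the 7 genes are therefore given with and without it in both tables, while the likeness of patterns is given over all 6 arrays alone. Median intensity ran from 19.0 to 20.5 over the 6 arrays, and the number of arrays limits the precision of every value.

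Of the 7 genes, 4 had lower and 3 higher intensity in the double mutants; 0.922% of all probe sets are listed as lower and 1.43% as higher. Tbx22, Barx1 and Shox2 were lower by 2.71- to 3.84-fold and Msx1 by 1.57-fold, while Meox2, Snai1 and Mn1 were higher by 2.22-, 1.58- and 1.30-fold in the authors' deposited table. None passed the test after adjustment in the fit across all probe sets. In limma on the value table, 0 of the 5 genes whose mean intensity was over 100 in either group had an adjusted p under 0.05, and neither did any of the 14446 probe sets tested, which is 0%. At an unadjusted limma p under 0.05 there were 3 of the 5, Tbx22 and Barx1 lower and Snai1 higher, where 1.70% of all tested probe sets pass, 0.789% lower and 0.907% higher. Without the array labelled double mutant 1, 5 of the 5 had an unadjusted p under 0.05, where 5.88% of 13904 probe sets do, and 0 an adjusted one, where 0.0647% do. Shox2 and Meox2 were under the filter, and their values come from a fit of all 45037 probe sets without it, in which 7 of 7 genes had an unadjusted p under 0.05, where 3.65% of all probe sets do, and 0 had an adjusted one. With array weights, in a limma fit whose weights had not converged, Tbx22, Barx1, Msx1 and Snai1 had an adjusted p under 0.05, 4 of the 5, where 11.2% of probe sets do. Barx1 entered the filtered fit through its wild-type level alone. Because the genes had been selected for a difference on the same embryos, these counts describe them and do not support them.

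The 3 arrays of each group did not overlap for any of the 7 genes in either table. In the value table without filter 10.8% of probe sets have groups that do not overlap, 4.06% with the double mutants lower and 6.72% with them higher. Every one of the 1061 listed probe sets, 100%, has groups that do not overlap in the significance table, so there the property says nothing of the 7 genes. The value table comes from the same embryos on which they were selected, so the property is no separate support there either. Its share in the value table among the listed probe sets alone was not computed. Intensities in bulk tissue do not tell fewer cells of a type from less RNA per cell.

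**Figure D1:**
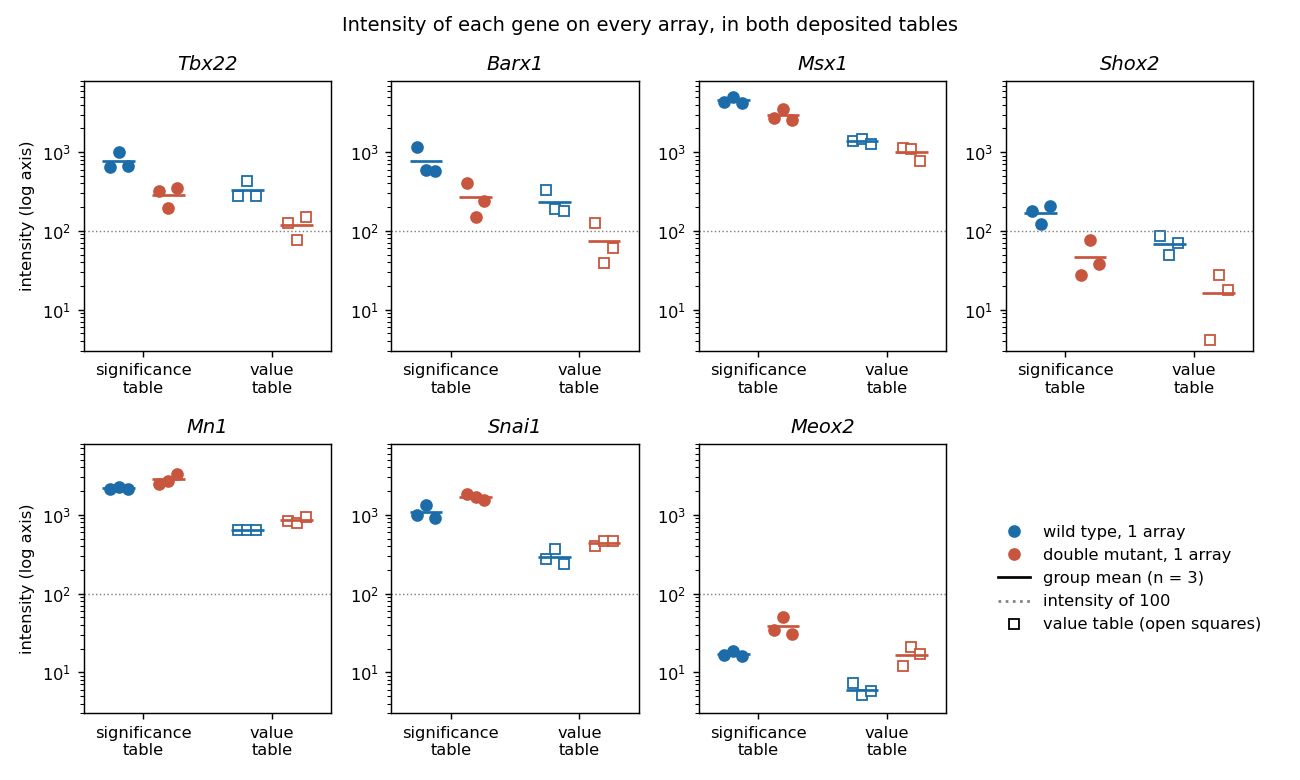
Intensity on a log axis for each of the 7 genes on every array, in the significance table (filled circles) and the value table (open squares), with wild type in blue, double mutants in red, group means as lines (n = 3) and a dotted line at an intensity of 100. In each panel and table the 3 double-mutant arrays are separate from the 3 wild-type arrays, with the widest group spread for Shox2 in the double mutants of the value table, at 4.1 to 27.3.

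Tbx22, the T-box gene of X-linked cleft palate, had intensities of 639.6, 1016 and 669.8 in wild type and 318.9, 196.9 and 346.8 on double mutants 1, 2 and 4 in the significance table. Its highest wild-type array was wild type 4 and its lowest array double mutant 2, and the groups were 1.84-fold apart at their nearest values. Group means there were 775 ± 209 and 288 ± 79.7 (SD, n = 3). The authors' deposited table gives 2.71-fold lower expression and p = 0.0122, from an uncorrected unpaired test. The value table gave 276.6, 433 and 278.9 for wild types and 125.2, 75.7 and 150.5 for double mutants, again with a nearest distance of 1.84-fold. By limma the log2 difference was -1.39 ± 0.32 (SE), its p 0.00386 unadjusted and 0.764 adjusted. Without the array labelled double mutant 1 it was -1.45 ± 0.31, with an adjusted limma p of 0.342. The probe set aligns to chromosome X from 104883640 to 104884319 on the plus strand, on a build that the file does not name, as holds for the alignments that follow.

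Barx1, a homeobox gene active in proximal arch mesenchyme and known for its roles in molar and stomach development, was the most scattered of the 4 within wild type. Its significance-table intensities were 1150, 593.2 and 569.8 in wild type and 406.9, 150.9 and 239.9 on double mutants 1, 2 and 4. One wild-type array, the column whose number matches no sample title, was 2.02-fold above the lowest of its group, and double mutant 1 was the highest of the double mutants. Means were 771 ± 328 and 266 ± 130 (SD, n = 3). A 2.98-fold lower value and p = 0.0407 are given in the authors' deposited table. The value-table arrays read 333.7, 189.5 and 178.4 for wild types and 124.7, 39.3 and 59.8 for double mutants, so 3 of 3 wild-type arrays and 1 of 3 double-mutant arrays were over 100. The limma log2 difference was -1.52 ± 0.42 (SE), its p 0.00924 unadjusted and 0.764 adjusted. When the array labelled double mutant 1 was left out, the difference was -1.90 ± 0.29 with an adjusted limma p of 0.148. The probe set aligns to chromosome 13 from 48758404 to 48761876 on the plus strand.

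Msx1, a homeobox gene needed for tooth and palate growth in the mouse, had a small difference and high intensity in both groups. In the significance table wild type held 4341, 5087 and 4236, and double mutants 1, 2 and 4 held 2707, 3484 and 2578. All 6 arrays were well over 100 in both tables, and the nearest values of the groups were 1.22-fold apart in the significance table and 1.13-fold apart in the value table. Means were 4554 ± 464 and 2923 ± 490 (SD, n = 3). The authors' deposited table gives a 1.57-fold lower value and p = 0.0148. Value-table intensities were 1380, 1489 and 1268 against 1126, 1092 and 774.5, with double mutant 4 the lowest. The log2 difference there was -0.48 ± 0.24 (SE), with a limma p of 0.0898 unadjusted and 0.764 adjusted. Without the array labelled double mutant 1 it was -0.57 ± 0.18 and the adjusted limma p 0.676. The alignment is to chromosome 5 from 38211729 to 38215821 on the minus strand.

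Shox2, a paired-class homeobox gene needed for the anterior palate in the mouse, had the largest fold of the 7 in the significance table and low intensity in the value table. It read 179.9, 122.2 and 205.9 in wild type and 27.8, 75.5 and 38.1 on double mutants 1, 2 and 4. Here double mutant 2 was the highest of its group, where for Tbx22 and Barx1 it was the lowest. Means were 169 ± 42.9 and 47.1 ± 25.1 (SD, n = 3). A 3.84-fold lower value and p = 0.0157 stand in the authors' deposited table. On the value-table scale they stood at 85, 49.2 and 70.6 for wild types and at 4.1, 27.3 and 17.8 for double mutants, all under 100. The log2 difference was -1.43 ± 0.33 (SE) in the fit without filter, its limma p 0.00494 unadjusted and 0.857 adjusted. Without the array labelled double mutant 1, the lowest of the 6, it was -1.12 ± 0.22 with an adjusted limma p of 0.605. Values were taken as log2 of intensity plus 16, which understates folds of dim genes: with an offset of 1 the difference was -2.28 and with one of 64 it was -0.72. The probe set aligns to chromosome 3 from 66775216 to 66776307 on the minus strand.

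Among the genes with higher intensity, Mn1, a transcriptional cofactor gene needed for palate growth in the mouse, had the smallest fold and tightly grouped wild-type arrays. Significance-table intensities were 2105, 2255 and 2149 in wild type and 2492, 2706 and 3316 on double mutants 1, 2 and 4. Its nearest values were 1.10-fold apart, and the coefficient of variation, the SD over the mean, was 3.55% for wild types and 15.1% for double mutants. The means were 2170 ± 77.0 and 2838 ± 428 (SD, n = 3). In the authors' deposited table this is a 1.30-fold higher value and p = 0.0402, under the submitters' own fold criterion of 1.5. Value-table wild types gave 644.5, 650.7 and 647.5 and the double mutants 823.9, 781.5 and 941.5. The limma log2 difference was 0.38 ± 0.20 (SE), its p 0.108 unadjusted and 0.764 adjusted. It was 0.40 ± 0.14 without the array labelled double mutant 1, with an adjusted limma p of 0.756. Its alignment is to chromosome 5 from 111883935 to 111886044 on the plus strand.

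Snai1, which encodes a zinc-finger repressor known from epithelial-mesenchymal transition and neural crest, read 994.7, 1342 and 904.3 in wild type and 1815, 1684 and 1564 on double mutants 1, 2 and 4. The spread was on the wild-type side, where wild type 4 came within 1.17-fold of the lowest double mutant. Means were 1080 ± 231 and 1688 ± 126 (SD, n = 3). The value was 1.58-fold higher and p = 0.0223 in the authors' deposited table. Value-table intensities were 274.7, 366.8 and 236.8 for wild types and 400.2, 461.8 and 465.4 for double mutants. The log2 difference was 0.59 ± 0.24 (SE), with a limma p of 0.0479 unadjusted and 0.764 adjusted. Without the array labelled double mutant 1 it was 0.66 ± 0.19, and the adjusted limma p was 0.631. The probe set aligns to chromosome 2 from 167363704 to 167368314 on the plus strand.

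Meox2, a mesenchyme homeobox gene whose loss leaves a cleft palate in the mouse, was dim throughout. The significance table held 16.5, 18.4 and 15.9 in wild type and 34.6, 50.6 and 30.3 on double mutants 1, 2 and 4. No array of either group reached 100 in either table, so the gene did not meet the submitters' intensity criterion. Means were 17.0 ± 1.32 and 38.5 ± 10.7 (SD, n = 3). For Meox2 the authors' deposited table gives a 2.22-fold higher value and p = 0.00757. Value-table intensities were 7.2, 5.2 and 5.7 against 11.9, 21 and 16.9. The log2 difference was 0.56 ± 0.14 (SE) in the fit without filter, its limma p 0.00800 unadjusted and 0.857 adjusted. Without the array labelled double mutant 1 it was 0.66 ± 0.11, with an adjusted limma p of 0.478. The size depended on the offset, at 1.30 with an offset of 1 and 0.20 with one of 64. The probe set aligns to chromosome 12 from 37835132 to 37906123 on the plus strand.

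The double-mutant arrays did not keep one order over the 4 genes with lower intensity. Against the wild-type mean of log2 intensities in the significance table, Barx1 was at -0.84 on double mutant 1, -2.27 on double mutant 2 and -1.60 on double mutant 4. Shox2 ran the other way, at -2.57, -1.13 and -2.12. Tbx22 was lowest on double mutant 2, at -1.94, and Msx1 on double mutant 4, at -0.82. Lhx8 was at -0.80, -1.74 and -1.51 on the same arrays, an order it shares with Barx1. The value table kept the order of the 3 double-mutant arrays for Tbx22, Barx1 and Shox2. For Msx1 it did not, with double mutant 1 at -0.75 in the significance table and -0.29 in the value table. Without double mutant 1, the significance-table log2 difference of Shox2 went from -1.94 to -1.63 and that of Barx1 from -1.57 to -1.94. The other genes moved less, Tbx22 from -1.44 to -1.54, Msx1 from -0.65 to -0.60, Mn1 from 0.38 to 0.47, Snai1 from 0.66 to 0.61 and Meox2 from 1.15 to 1.21.

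**Figure D2:**
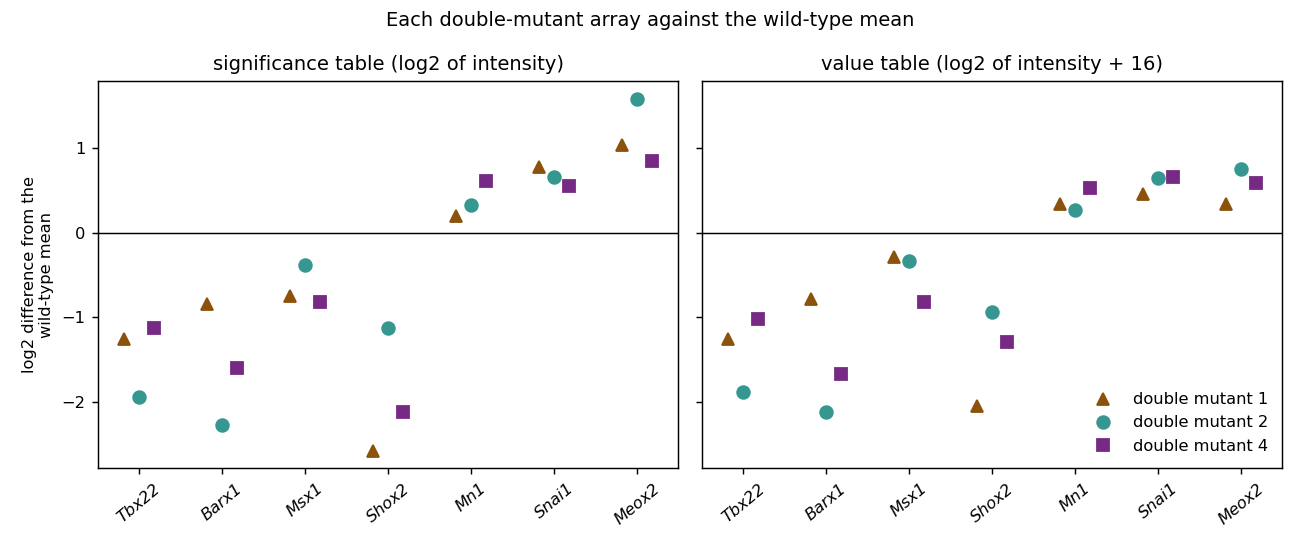
Log2 difference of each double-mutant array from the wild-type mean, for the 7 genes, in the significance table (left, log2 of intensity) and the value table (right, log2 of intensity plus 16); each point is 1 array. All points of Tbx22, Barx1, Msx1 and Shox2 lie under 0 and all points of Mn1, Snai1 and Meox2 over it, while double mutant 2 is lowest for Barx1 at -2.27 and highest for Shox2 at -1.13 in the significance table.

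Likeness of pattern was measured among 842 listed genes with a single symbol, as the root mean square difference of log2 intensities over the 6 arrays after subtracting each gene's own mean. The gene nearest to Barx1 was Lhx8, at 0.41, with Ntm and Lgi1 at 0.49. Nearest to Tbx22 was Id4, a gene for a dominant-negative helix-loop-helix protein, at 0.28, followed by Mrpl35 at 0.30 and Exo1 at 0.31. Nfkbiz, Snx10 and Srsf11 were nearest to Shox2 at 0.31 to 0.35, and Hapln1, Mttp and Galm to Msx1 at 0.06 to 0.08. On the higher side, Pla1a, BC026439 and 4930456K20Rik were nearest to Mn1 at 0.04 to 0.06, and Scube3, Crispld2 and Fmo1 to Snai1 at 0.09 to 0.10. Kcnd3 was nearest to Meox2 at 0.15, then Ngfr and C030044O21Rik at 0.21. None of these nearest genes was another of the 7. Between the 7, the closest pair was Mn1 and Snai1 at 0.27, then Snai1 and Meox2 at 0.34, Mn1 and Meox2 at 0.49, and Tbx22 and Barx1 at 0.55, and the farthest Shox2 and Meox2 at 1.59. The measure follows the size of the group difference, by which all these genes had been selected.

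The submitters' gene list required 3 things: fold over 1.5, uncorrected p under 0.05, and mean intensity above 100 in at least 1 group. On these, 5 of the 7 genes qualified: Tbx22, Barx1, Msx1, Shox2 and Snai1. Shox2 met the intensity criterion through its wild-type mean of 169 alone, with 47.1 in the double mutants. Of the listed probe sets 24.6% qualify, and 0.579% of all probe sets on the array. Recomputed without 1 array at a time, Tbx22 met the criteria in 6 of 6 cases, and the number of qualifying genes was between 1 and 3. It was 3 without the array labelled double mutant 1, namely Tbx22, Barx1 and Shox2. Without double mutant 4 Tbx22 alone was left. Without the unnumbered wild-type column or without wild type 5 Tbx22 and Msx1 were left. Without wild type 4 there were Tbx22, Shox2 and Snai1, and without double mutant 2 Tbx22, Msx1 and Shox2. The criteria were recomputed on the intensities by which the genes had been selected, so meeting them is a description and not support. How many other listed probe sets meet them in 6 of 6 cases, or in any single one of these cases, was not computed. The counts with 1 array left out therefore have no share to be set against.

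**Figure D3:**
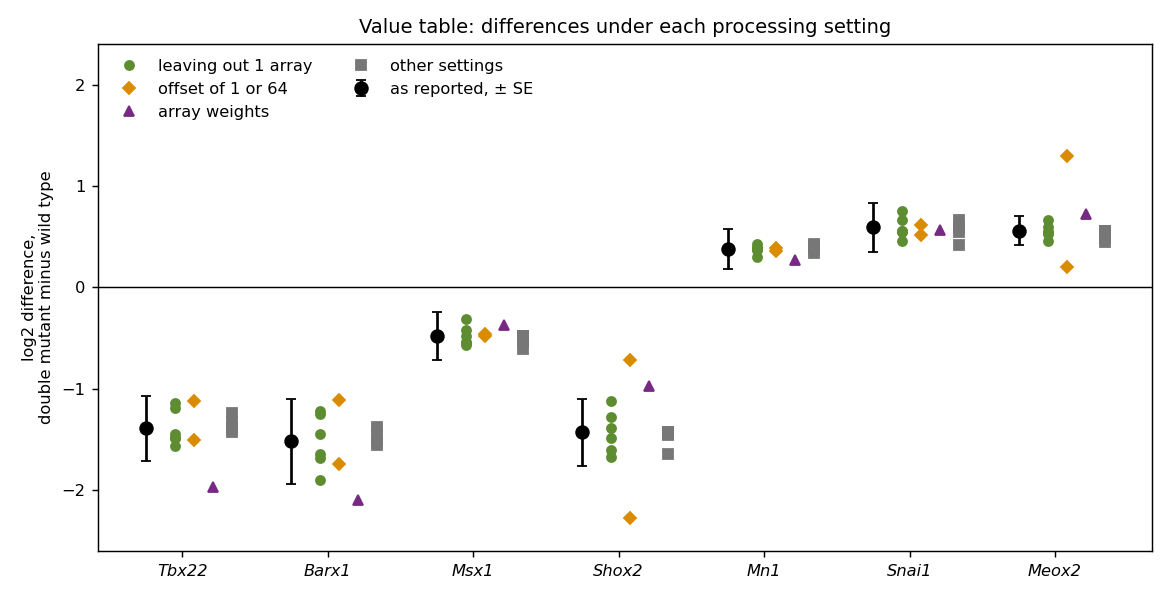
Log2 difference between double mutants and wild type in the value table for the 7 genes, as reported (black, ± SE of the limma fit) and under alternative settings (coloured points); Shox2 and Meox2 come from fits without the intensity filter. No point crosses 0, and the widest ranges are those of Shox2, from -2.28 to -0.72, and Meox2, from 0.20 to 1.30, set by the offset. The groups did not overlap, so neither leaving out 1 array nor another offset could move a point across 0.

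Further palate regulators differed in either direction in the significance table. Of a list of 60 palate regulators 13 were listed, 5 higher and 8 lower. It contains the 7 genes, which are among the 13 by the way they were chosen. Of all probe sets on the array 2.35% are listed, 1.43% as higher and 0.922% as lower. These shares are of probe sets, while the 13 are genes, and a gene with several probe sets can be listed through any of them. The 13 had a median log2 difference of -0.57 where all 842 listed genes had 0.38. Also lower were Eya1, a transcriptional cofactor gene, with means of 2932 ± 110 for wild type and 1981 ± 423 for double mutants (SD, n = 3), and the WNT ligand gene Wnt11, at 168 ± 22.9 and 111 ± 8.35. The Eph receptor gene Ephb2 was at 393 ± 68.0 and 263 ± 24.2, and the WNT effector gene Lef1 at 204 ± 12.8 and 155 ± 21.0. Fgfr2, an FGF receptor gene, was higher at 1185 ± 106 and 1983 ± 344, as was Cdkn1c, a CDK inhibitor gene, at 1439 ± 137 and 2505 ± 282. Of the 13, 9 passed the filter of the value table, with a median log2 difference of -0.38, and all tested probe sets had -0.05. These 9 had been selected for a difference on the same embryos and ran from -1.52 to 0.94, so the medians describe them and support nothing. By limma 0 of the 9 had an adjusted p under 0.05 and 5 an unadjusted one, where 1.70% of all tested probe sets do: Fgfr2, Cdkn1c and the Tbx22, Barx1 and Snai1 already counted. The other 47 genes of the list are not named in the files and were not analysed here.

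**Figure D4:**
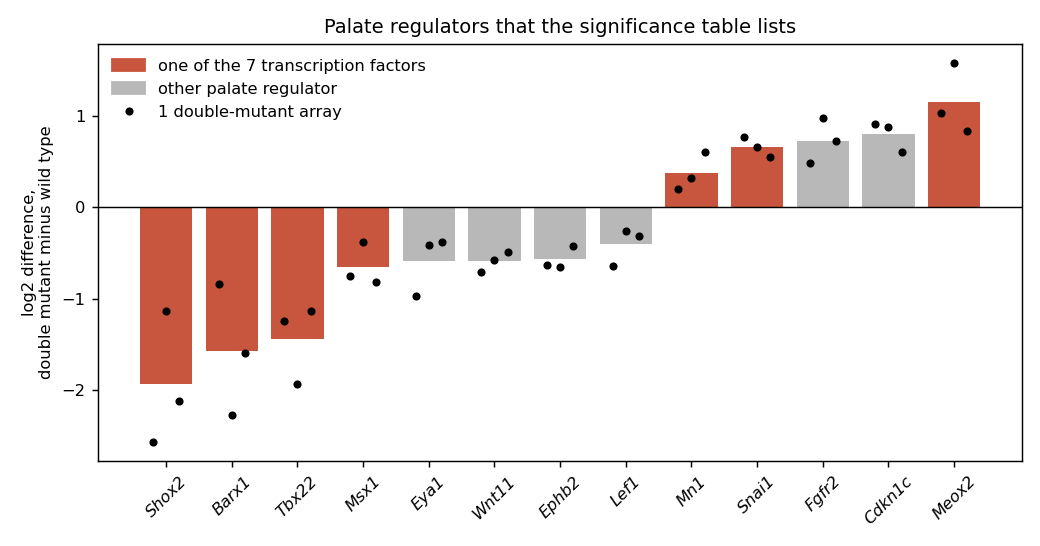
Log2 difference between double mutants and wild type in the significance table for the 13 listed palate regulators; bars are group differences of mean log2 intensity, points are the 3 double-mutant arrays against the wild-type mean, and red bars mark the 7 transcriptional regulators. The 3 lowest bars are Shox2 at -1.94, Barx1 at -1.57 and Tbx22 at -1.44, and the highest is Meox2 at 1.15.

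Of 28 family relatives of the 7 genes, 3 were listed, where 2.35% of all probe sets are, 1.43% as higher and 0.922% as lower. The shares are of probe sets while the counts, here and below, are of genes, so they are not directly comparable. Tbx15, a T-box gene, was at 60.7 ± 13.3 and 30.8 ± 3.15 (SD, n = 3), Tbx18, another T-box gene, at 6.49 ± 0.481 and 14.7 ± 5.43, and the homeobox gene Gsc at 25.9 ± 5.16 and 42.4 ± 2.10 in the significance table. All 3 had means under 100 in both groups. Of 32 genes of the BMP and FGF pathways, which are known to act upstream of Msx1 and Barx1, 5 were listed, again beside 2.35% of all probe sets. Among the 5, 2 were higher and 3 lower, with a median log2 difference of -0.50. Id4, a BMP target gene, stood at 314 ± 37.8 and 148 ± 31.5, and the FGF target genes Dusp6 and Etv1 at 3740 ± 381 and 2316 ± 353 and at 1105 ± 105 and 781 ± 19.7. Higher beside Fgfr2 was the ligand gene Bmp5, at 26.6 ± 2.92 and 80.5 ± 22.4. Of these 5, 4 were tested in the value table, and 0 had an adjusted limma p under 0.05 while 3 had an unadjusted one, where 1.70% do. These genes too had been selected for a difference on the same embryos, so the count describes them and supports nothing. Fgfr2 is counted among the palate regulators as well.

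Markers of other cell types were in part among the listed probe sets, which are 2.35% of the array, 1.43% listed as higher and 0.922% as lower. The marker counts that follow are of genes, and these shares are of probe sets. Listing itself selects for groups that do not overlap, so the sums that follow, from the significance table, are a description, and no marker had an adjusted limma p under 0.05 in the value table. Of 8 markers of glial crest cells 4 were listed, Sox10, Foxd3, Erbb3 and Ngfr, all higher, and their summed intensity was 258.8 to 286.0 for wild types and 506.1 to 632.8 for double mutants. Most of that sum was Ngfr, with means of 191 ± 14.7 and 414 ± 77.0 (SD), while Sox10, Foxd3 and Erbb3 had means under 100 in both groups. The pericyte marker Pdgfrb, 1 of 7, was at 1868 to 2096 and 2615 to 3045. Of 7 markers of cartilage precursors Sox6 and Ucma were listed, both lower, with sums of 553.6 to 617.4 and 196.5 to 201.6, and of 8 markers of muscle precursors Pax7 and Msc, both higher, with sums of 49.3 to 56.9 and 63.0 to 77.6. The value table, fitted without filter, gave log2 differences of 0.54 for Foxd3, 0.77 for Sox10, 0.85 for Erbb3 and 1.01 for Ngfr, each with an SE of 0.14 to 0.24. In the significance table these were 0.69, 1.44, 0.88 and 1.11. Pdgfrb was at 0.49 ± 0.15 (SE) in the value table against 0.49, and Ucma at -1.86 ± 0.14 against -2.63. Pax7 was at 0.05 ± 0.11 against 0.39, Msc at 0.21 ± 0.18 against 0.39 and Sox6 at -0.11 ± 0.11 against -0.48. The offset of 16 understates differences of dim markers in the value table. None of the 14 epithelial, 10 endothelial, 9 blood and 11 neuronal markers was listed, and of 13 markers of maxillary mesenchyme the one listed was Lhx8. Unlisted markers are not named in the files. The part of these cell types in the values of the 7 genes was not tested.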

How the data were processed

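RNA was amplified before hybridisation, per the labels' protocols, and both deposited tables were used. The value table holds 1 linear intensity per probe set and array, and the deposited intensities contain zeros, which RMA, the tool listed per the submitters' processing notes, does not give, so their summary method is unknown. The significance table was kept at a p-value of 0.05 from an unpaired test without correction and an absolute fold of 1.25, per the file headers. Its 6 intensity columns are called raw there; recomputed p-values matched the deposited ones to within 5.14e-07. A further 6 per-array columns were not used. Columns were matched to samples by genotype and number, and a wild-type column with a number no title has was used without one.

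Value-table intensities, plus 16, were taken as log2; controls (64) were left out and means over 100 in either group required (14446 probe sets). Groups were fitted with limma 3.58.1 in R 4.3.3, with Benjamini-Hochberg adjustment; the script was tested on simulated data. Python 3.11.15, scipy 1.17.1 and pandas 2.3.3 did the rest. With 3 arrays a group, exact permutation can reach no p below 0.1. Alternatives were other offsets, filters, normalizations, array weights, a replicate block, other tests and leaving out each array. Named were the 7 genes, every listed member of the gene and marker lists, and the genes nearest in pattern (3 for each). Members and lists were chosen with earlier results of these data known. Intensities of different probe sets are not ranked against each other. Promoter sequences are RefSeq's.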

Additional observations from a re-analysis of the deposited data

How the results depend on the processing

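All 7 genes kept their direction in the 157 values recomputed over the alternatives of both tables, and 0 reversed. The groups did not overlap for any of the 7, so leaving out 1 array or changing the offset could not reverse a direction. Other filters and tests leave the difference itself unchanged, so this count is largely fixed by how the genes were selected. The count of probe sets with an adjusted limma p under 0.05, which was 0, ranged from 0 to 9 when 1 array was left out: 9 without the array labelled double mutant 1, 2 without double mutant 4 and 0 in the other 4 cases. With array weights it was 1619, and 4 of the 7 genes passed, Tbx22, Barx1, Msx1 and Snai1; that fit, which stopped before convergence, gave double mutant 2 a weight of 20 and double mutant 1 one of 0.0375. In the other alternatives 0 of the 7 genes passed. The number of genes meeting the submitters' 3 criteria, 5, ranged from 1 to 3 with 1 array left out, and was 3 with value-table intensities and 3 at a fold of 2. Without the filter, the count of all probe sets with an unadjusted p under 0.05 was 1646, against 245; it was 80 to 817 with 1 array left out, 141 with a stricter filter and 4064 with array weights. Of the 5 genes that pass the filter, 3 had an unadjusted p under 0.05, and 5 without the array labelled double mutant 1 and 5 with array weights; without the filter all 7 genes did. With the replicate number as a block 2 probe sets passed and none of the 7 genes, and 0 of the 5 tested with the filter had an unadjusted p under 0.05, though 473 probe sets did. Only the numbers 1 and 4 occur in both groups, so the block fit takes the difference from those arrays alone, double mutant 1 among them. In the unfiltered limma fit with the block Shox2 had an unadjusted p of 0.0419 and Meox2 of 0.164. Arrays sharing a number correlated at 0.065 and -0.079 in their deviations from the group means, so the numbers were not taken as pairs. Fits without the filter combined with another setting, used for Shox2 and Meox2, were chosen after seeing the data. The causes of these changes were not tested. Dim intensities limit Meox2 and Shox2, whose sizes depend on the offset.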
